A study of Sus scrofa with 6 samples.

Results

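The genes described here are 10 integrin genes of muscle and stroma, taken by their pig Ensembl symbols from a matrix of raw read counts. They are 10 of the 30476 genes in that matrix, and all 10 were found and passed the filter on low counts. The list holds the alpha chains *ITGA1*, *ITGA5*, *ITGA6*, *ITGA7*, *ITGA9*, *ITGA11* and *ITGAV*, the beta chains *ITGB1* and *ITGB5*, and *ITGB1BP2*, a cytoplasmic partner of the beta-1 chain that is no integrin itself. Positions are gene spans on the pig genome build Sscrofa11.1. RNA-seq was performed on longissimus dorsi (the long back muscle) from 3 pigs with a UCP1 knock-in (UCP1 KI) and 3 wild-type (WT) pigs, all aged 6 months, with 1 library per pig. UCP1, the uncoupling protein of brown fat, was inserted by CRISPR/Cas9 for expression in adipocytes, so muscle fibres were not the cells meant to carry it. The libraries were made from whole muscle and hold RNA of other cells too, adipocytes among them. Pigs lack a working UCP1 of their own, and this holds for both groups. The labels do not give the sex of the pigs or whether they were littermates, and p values rest on the differences between these 6 animals.

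Integrins are receptors of the cell surface in which an alpha and a beta chain pair to bind the extracellular matrix outside the cell and the actin skeleton inside it. In skeletal muscle the alpha-7 beta-1 receptor ties the fibre to laminin in its basement membrane, and loss of the alpha-7 chain causes a muscular dystrophy. Fibroblasts, endothelial cells, pericytes and immune cells of the muscle carry other alpha chains, which bind collagens, fibronectin and vitronectin.

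The counts on genes summed to between 30220951 and 35066624 per pig, with a median of 32281278 for UCP1 KI and of 34053263 for WT. Levels are given as CPM, counts per 1000000 counts on genes after TMM scaling, which is edgeR's correction for a few very abundant genes. The TMM factor was smallest in WT replicate 2 (0.781) and largest in UCP1 KI replicate 2 (1.18). Summed CPM of muscle fibre genes (5 of 10 found, *ACTA1*, *CKM*, *TNNT3*, *TNNT1* and *DES*) lay between 58439 and 99757, so every library carried abundant muscle RNA. *MYH1*, *MYH2*, *MYH4*, *MYH7* and *TTN* were on this list but not found by symbol. Summed fibroblast markers (7 of 8 found) were at 251 to 444 CPM under UCP1 KI against 749 to 1201 CPM in WT pigs, without overlap. *COL1A1*, *COL1A2* and *COL3A1* are 3 of these 7 markers, and the other 4 (*PDGFRA*, *DCN*, *LUM* and *DPT*) summed to 133 to 152 CPM under UCP1 KI and 150.0 to 208 CPM in WT, with overlap. Red blood cell markers (2 of 3 found) were at 11.4 to 75.8 and 104 to 179.5 CPM, also without overlap. Summed markers of endothelial, mural, satellite, leukocyte, adipocyte and Schwann cells overlapped between the groups, although some of these lists went 1 way gene by gene. All 8 markers of mural cells (pericytes and smooth muscle) had a negative log2 fold change, with a median of -0.92, a summed level of 274 to 377 CPM under UCP1 KI and 325 to 715 CPM in WT, and *NOTCH3* (-1.02) past the edgeR limits on p and fold change. All 6 endothelial markers found had a positive one, with a median of 0.16, a summed level of 313 to 567 CPM under UCP1 KI and 278 to 529 CPM in WT, and *TEK* (1.20) past the same limits. All 4 adipocyte markers tested had a negative one, and 0 of them passed. The part of these cells in the values of integrin genes and ligands that they carry was not tested. In whole muscle, fewer cells of a type and less RNA per cell cannot be told apart.

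None of the 10 genes passed both limits of the comparison between UCP1 KI and WT pigs. These limits were p under 0.05, before adjustment, in the quasi-likelihood test of edgeR, and a log2 fold change beyond 0.5 in either direction. The count was 0 of 10, with or without the limit on the fold change. Over the 13402 genes tested, 8.19% passed both limits, and for a list of 10 genes a count of 0 is close to that share. Of the 10 genes, 6 had a negative and 4 a positive log2 fold change of UCP1 KI against WT, with a median log2 fold change of -0.32, against -0.02 over all genes tested. The smallest adjusted p among the 10 was 0.610 with Benjamini-Hochberg adjustment over all genes tested, and 0 of all genes had an adjusted p under 0.05. *ITGA6*, *ITGA7* and *ITGB1BP2* lay next to the p limit, with unadjusted edgeR values of 0.0520, 0.0544 and 0.0551, and DESeq2 on the same genes put these 3 past both limits, all lower in UCP1 KI pigs. Over all 13402 genes tested, DESeq2 put 1309 past both limits, 719 of them lower. DESeq2 gave 0 of the 10 an adjusted p under 0.05, with 0.482 as the smallest, and 127 of all genes one. At this depth and with 3 pigs a group, the 95% intervals of the log2 fold changes of all 10 genes included 0.

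**Figure D1:**
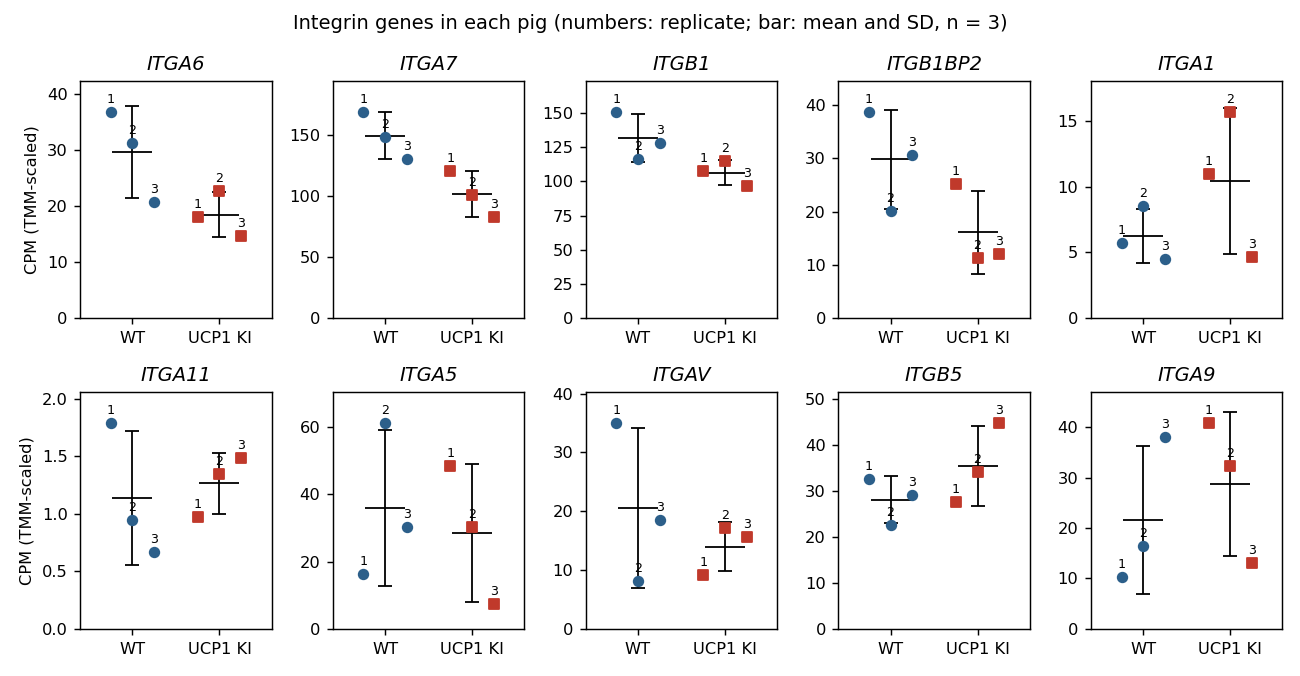
Level of each of the 10 genes in each pig, in TMM-scaled CPM on a linear axis that starts at 0, with WT pigs as blue circles, UCP1 KI pigs as red squares and replicate numbers above the points. Horizontal bars are group means and error bars SD over 3 pigs. The groups are apart for *ITGA7* and *ITGB1* and overlap for the other 8 genes.

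Among the receptors for laminin, *ITGA7* (ENSSSCG00000036237, chromosome 5, 21126565 to 21150875), the alpha chain typical of muscle fibres, was at 121, 100.6 and 83.3 CPM in UCP1 KI replicates 1 to 3. The WT replicates 1 to 3 were at 169, 149 and 131 CPM. Every UCP1 KI pig was below every WT pig, although the closest pair, UCP1 KI replicate 1 and WT replicate 3, were near each other. The means of 102 ± 18.8 and 149 ± 19.1 CPM (SD, n = 3 each) gave a log2 fold change of -0.56 (standard error 0.25, 95% interval -1.13 to 0.01). The adjusted p from edgeR was 0.610. *ITGA6* (ENSSSCG00000015955, chromosome 15, 78504108 to 78591779) encodes the alpha chain by which endothelial cells, Schwann cells and satellite cells bind laminin. It was at 17.9, 22.7 and 14.7 CPM in UCP1 KI replicates 1 to 3. In WT replicates 1 to 3 it was at 36.7, 31.3 and 20.6 CPM, so that UCP1 KI replicate 2 and WT replicate 3 overlapped while the other WT pigs stood above. For *ITGA6* the log2 fold change was -0.68 (standard error 0.30, 95% interval -1.36 to 0.01, edgeR adjusted p = 0.610). When WT replicate 3 was left out, *ITGA6* (-0.88) and *ITGA7* (-0.64) passed both limits, and *ITGA6* (-0.87) also did so when UCP1 KI replicate 2 was left out.

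*ITGB1* (ENSSSCG00000011101, chromosome 10, 56078393 to 56130608) encodes the beta-1 chain, the common partner of the alpha chains 1, 5, 6, 7, 9 and 11 and also of alpha-V. It varied least of the 10 genes, with a 1.56-fold range over the 6 pigs. UCP1 KI replicates 1 to 3 were at 108, 115 and 96.8 CPM, and WT replicates 1 to 3 at 151, 117 and 128 CPM. The groups did not overlap, by a narrow margin between UCP1 KI replicate 2 and WT replicate 2. *ITGB1* had a log2 fold change of -0.31 (standard error 0.22, 95% interval -0.83 to 0.21, edgeR adjusted p = 0.724). *ITGA7* and *ITGB1* were the 2 of 10 genes without overlap, against 15.3% of all genes tested, made up of 7.69% with UCP1 KI pigs lower and 7.59% with UCP1 KI pigs higher. With counts scaled by library size only, both of them overlapped, *ITGA7* with 97.4 to 119 CPM in UCP1 KI pigs and 116 to 180.0 CPM in WT pigs.

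*ITGB1BP2* (ENSSSCG00000022209, chromosome X, 57316490 to 57321614) encodes melusin, a chaperone-like protein of striated muscle that binds the tail of the beta-1 chain and takes part in the response of heart muscle to mechanical load. It was at 25.1, 11.25 and 11.97 CPM in UCP1 KI replicates 1 to 3, and at 38.7, 20.2 and 30.7 CPM in WT replicates 1 to 3. UCP1 KI replicates 2 and 3 were below all WT pigs, and UCP1 KI replicate 1 was above WT replicate 2. The means were 16.1 ± 7.81 and 29.9 ± 9.30 CPM (SD, n = 3 each). Of the 10 log2 fold changes, that of *ITGB1BP2* was the largest in size, at -0.89 (standard error 0.39, 95% interval -1.81 to 0.025, edgeR adjusted p = 0.610). It passed both limits without UCP1 KI replicate 1, at -1.36, and likewise when WT replicate 2 was left out, at -1.11. Since the gene is on the X chromosome and the labels give no sex, the Y-linked *KDM5D*, chosen after its values were seen, was looked up and had 41, 46 and 71 counts in UCP1 KI replicates 1 to 3 and 43, 50 and 30 in WT replicates 1 to 3.

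Among the receptors for collagen, *ITGA1* (ENSSSCG00000016885, chromosome 16, 32130265 to 32309917), a chain of endothelial cells, pericytes and fibroblasts, had the largest positive log2 fold change of the 10 genes. It was at 11.0, 15.7 and 4.66 CPM in UCP1 KI replicates 1 to 3, and at 5.73, 8.51 and 4.47 CPM in WT replicates 1 to 3. UCP1 KI replicates 1 and 2 were above all WT pigs, whereas UCP1 KI replicate 3 lay among them. *ITGA1* had a log2 fold change of 0.74 (standard error 0.46, 95% interval -0.33 to 1.82, edgeR adjusted p = 0.694), and it rested on single pigs, being 0.33 without UCP1 KI replicate 2 and, past both limits, 1.09 without UCP1 KI replicate 3. The annotated span of *ITGA1* overlaps that of the gene *PELO* (1055 to 1899 counts per pig) and that of a long noncoding RNA gene. The *ITGA1* counts are uncertain, since the way reads in the shared spans were assigned is not stated. *ITGA11* (ENSSSCG00000004961, chromosome 1, 166186601 to 166311046), the collagen receptor chain of fibroblasts, rested on few counts, 30, 48 and 56 in UCP1 KI replicates 1 to 3 and 65, 26 and 20 in WT replicates 1 to 3. These spanned both ends, WT replicate 1 being the highest and WT replicate 3 the lowest of the 6 pigs in CPM. For *ITGA11* the log2 fold change was 0.15 (standard error 0.49, 95% interval -0.99 to 1.297) and was -0.11 without WT replicate 3.

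Among the receptors for fibronectin and vitronectin, *ITGA5* (ENSSSCG00000000293, chromosome 5, 19587361 to 19610580), which pairs with beta-1 to bind fibronectin, varied most, with an 8.35-fold range over the 6 pigs. UCP1 KI replicates 1 to 3 were at 48.3, 30.2 and 7.34 CPM, and WT replicates 1 to 3 at 16.2, 61.3 and 30.2 CPM. The spread within each group was thus far wider than the distance between the means, and the log2 fold change of -0.33 (standard error 0.69, 95% interval -1.93 to 1.28) became 0.13 when UCP1 KI replicate 3 was left out and 0.30 when WT replicate 2 was.

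*ITGAV* (ENSSSCG00000016027, chromosome 15, 91604666 to 91711843) encodes the alpha-V chain of vitronectin receptors, which also release active TGF-beta from its latent form. UCP1 KI replicates 1 to 3 were at 9.18, 17.2 and 15.7 CPM, and WT replicates 1 to 3 at 35.1, 8.07 and 18.6 CPM. WT pigs held both the highest and the lowest value, and UCP1 KI pigs lay between them. Its log2 fold change of -0.55 (standard error 0.51, 95% interval -1.75 to 0.64) rested on WT replicate 1, without which it was 0.07. The span of *ITGAV* overlaps that of an annotated transcribed pseudogene, so its counts carry the same doubt as those of *ITGA1*. *ITGB5* (ENSSSCG00000037905, chromosome 13, 135468111 to 135587483), a beta chain that pairs with alpha-V, was at 27.7, 34.05 and 44.8 CPM in UCP1 KI replicates 1 to 3 and at 32.6, 22.6 and 29.0 CPM in WT replicates 1 to 3. UCP1 KI replicates 2 and 3 were above all WT pigs and UCP1 KI replicate 1 was not, and the log2 fold change was 0.34 (standard error 0.27, 95% interval -0.28 to 0.96). Leaving out UCP1 KI replicate 3 gave 0.13, and leaving out WT replicate 2 gave 0.20.

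*ITGA9* (ENSSSCG00000011245, chromosome 13, 22298497 to 22655717), a chain of smooth muscle and lymphatic endothelium that binds tenascin-C and osteopontin, was at 40.9, 32.3 and 13.1 CPM in UCP1 KI replicates 1 to 3. In WT replicates 1 to 3 it was at 10.2, 16.4 and 38.1 CPM. Each group held high and low pigs, and the 4.0-fold range over all pigs was hardly wider than the 3.73-fold range within WT pigs. *ITGA9* had a log2 fold change of 0.42 (standard error 0.56, 95% interval -0.89 to 1.72), which became 0.08 with UCP1 KI replicate 1 left out, 0.09 with WT replicate 1 left out and 1.11 with WT replicate 3 left out. The adjusted edgeR p values of *ITGA5*, *ITGA9*, *ITGA11*, *ITGAV* and *ITGB5* lay between 0.749 and 0.942.

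High and low values were not spread evenly over the pigs. WT replicate 1 was the highest of the 6 pigs for 6 of the 10 genes, *ITGA6*, *ITGA7*, *ITGA11*, *ITGAV*, *ITGB1* and *ITGB1BP2*. UCP1 KI replicate 3 was the lowest for 4 of them, *ITGA5*, *ITGA6*, *ITGA7* and *ITGB1*. The median log2 fold change of the 10 genes, -0.32 with all pigs, ran from -0.38 to -0.07 with 1 pig left out. It was closest to 0 without WT replicate 1 (-0.07), UCP1 KI replicate 3 (-0.12) or WT replicate 2 (-0.18), and was -0.32 to -0.38 when 1 of the other 3 was left out. Over the 12 alternative fits that give a fold change, *ITGA6*, *ITGA7*, *ITGB1* and *ITGB1BP2* had a negative log2 fold change in all 12, and *ITGA1*, *ITGA9* and *ITGB5* a positive one in all 12.

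**Figure D2:**
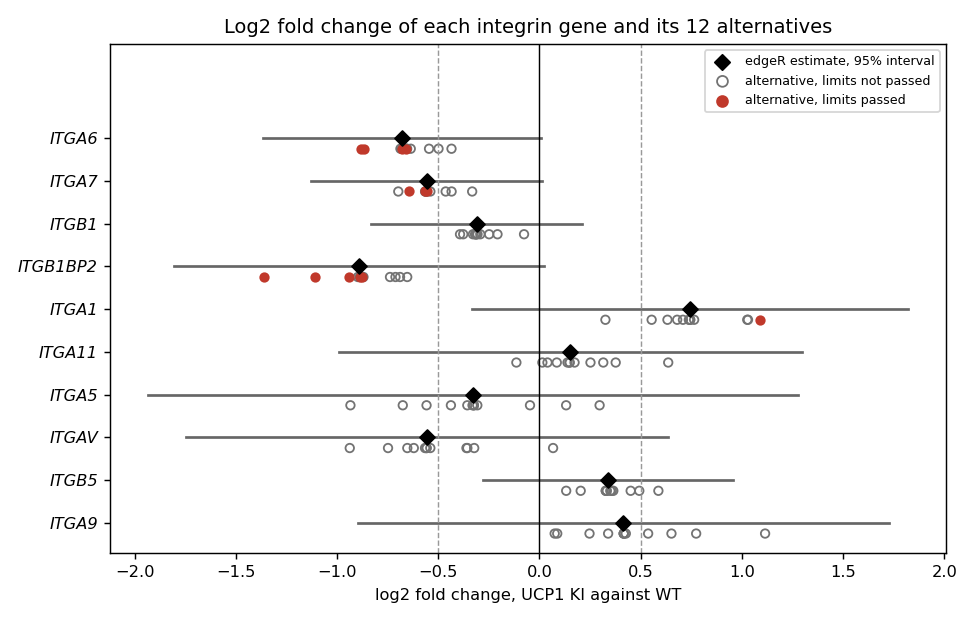
Log2 fold change of UCP1 KI against WT for the 10 genes. Black diamonds with lines are edgeR estimates with 95% intervals, and circles below are 12 alternative fits, filled red where both limits were passed and open where not. Dashed lines mark log2 fold changes of -0.5 and 0.5. Red circles occur for *ITGA6*, *ITGA7*, *ITGB1BP2* and *ITGA1*, and every interval includes 0.

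Ratios between 2 genes counted in the same pig do not depend on the scaling of libraries, and 5 such ratios were compared between the groups by exact permutation of the 6 pigs, two-sided. With 3 pigs against 3 the smallest p this test allows is 0.1. The ratio of *ITGA7* to *ITGB1* counts, the laminin receptor of the fibre over its beta chain, was 1.1206, 0.877 and 0.860 in UCP1 KI replicates 1 to 3 and 1.1201, 1.27 and 1.02 in WT replicates 1 to 3. The groups overlapped through UCP1 KI replicate 1, and the mean log2 ratio differed by -0.26 (exact permutation p = 0.3). For *ITGB1BP2* to *ITGB1* the ratio was 0.233, 0.0981 and 0.124 in UCP1 KI replicates 1 to 3 and 0.257, 0.173 and 0.239 in WT replicates 1 to 3, a difference of -0.64 in mean log2 ratio (exact permutation p = 0.2). UCP1 KI replicates 2 and 3 were again the low ones.

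For *ITGB5* to *ITGAV*, the chains of a vitronectin receptor, the ratio was 3.01, 1.98 and 2.86 in UCP1 KI replicates 1 to 3 and 0.930, 2.81 and 1.56 in WT replicates 1 to 3, a difference of 0.69 (exact permutation p = 0.2). WT replicate 1, with its high *ITGAV*, had the lowest ratio of the 6 pigs. The ratios of *ITGA6* to *ITGA7* and of *ITGA11* to *ITGA1* differed by -0.09 and -0.37 (exact permutation p = 0.8 and 0.6). With 1 pig left out, the difference for *ITGA6* to *ITGA7* ran from -0.25 to 0.05, the positive value being without UCP1 KI replicate 1, and that for *ITGA11* to *ITGA1* from -0.99 to 0.06, the positive value being without WT replicate 1. The other 3 differences kept their sign, at -0.38 to -0.18 for *ITGA7* to *ITGB1*, -1.0 to -0.37 for *ITGB1BP2* to *ITGB1* and 0.30 to 1.1 for *ITGB5* to *ITGAV*. After Benjamini-Hochberg adjustment over the 5 ratios, the exact p values were 0.5 to 0.8.

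**Figure D3:**
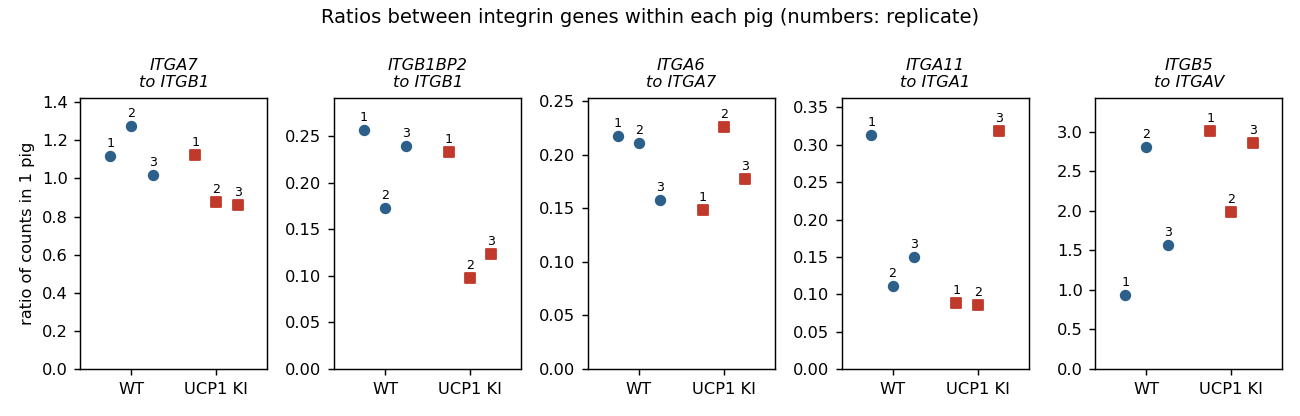
Ratio of the counts of 2 integrin genes in each pig, on linear axes that start at 0, with WT pigs as blue circles, UCP1 KI pigs as red squares and replicate numbers above the points. In each of the 5 panels the groups overlap.

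The other genes of integrin adhesion were taken in 4 lists, with 80 of 85 symbols found and 78 tested, and 9 genes passed both limits, 8 of them lower in UCP1 KI pigs. Over all genes tested, 4.34% passed as lower and 3.84% as higher. This balance depended on the scaling. With library size only, 3 genes of the 4 lists passed as higher and 7 as lower, against 929 and 195 of all genes. The most calls were among the extracellular ligands, where 5 of 21 genes passed, all lower, and 17 of 21 had a negative log2 fold change, with a median of -0.59. The laminin chain *LAMA2* was on the ligand list but was not found by symbol.

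*COL1A1* and *COL1A2*, the chains of type I collagen, and *COL3A1*, the chain of type III collagen, are fibrillar collagens, and all 3 also belong to the 7 fibroblast markers summed above. *COL1A1* (ENSSSCG00000036135) was at 44.0, 29.4 and 35.8 CPM in UCP1 KI replicates 1 to 3 and at 115, 179.6 and 101 CPM in WT replicates 1 to 3, without overlap. *COL1A1* had a log2 fold change of -1.86 (standard error 0.31, adjusted p = 0.280 from edgeR), and those of *COL1A2* and *COL3A1* were -1.70 and -1.57. With DESeq2, *COL1A1* and *COL1A2* had adjusted p values of 4.44e-05 and 0.00406, and they were the 2 genes of the 4 lists under 0.05.

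*LAMA4*, a laminin alpha chain of blood vessels, averaged 17.0 ± 3.94 CPM under UCP1 KI against 33.9 ± 10.02 CPM in the wild type (SD, n = 3 each), with a log2 fold change of -0.998. *NPNT*, nephronectin, a ligand of the alpha-8 integrin, averaged 3.12 ± 1.99 against 9.23 ± 4.01 CPM (SD, n = 3 each), with a log2 fold change of -1.57. Both were lower without overlap between the groups. The collagen and laminin ligands that did not pass included the basement membrane collagens *COL4A1* at -0.49 and *COL4A2* at -0.58, the laminin chain *LAMB2* at -0.59 and the laminin chain *LAMC1* at 0.17 (log2 fold changes).

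Of the 14 other integrin subunits tested, 2 passed both limits, in opposite directions. *ITGA3* (ENSSSCG00000017578), a laminin receptor chain of epithelia and vessels, was at 0.744, 0.926 and 2.49 CPM in UCP1 KI replicates 1 to 3 and at 5.18, 9.20 and 3.27 CPM in WT replicates 1 to 3, lower without overlap. Its log2 fold change was -2.08 (standard error 0.59, edgeR adjusted p = 0.583). *ITGAM* (ENSSSCG00000007754), the alpha chain of complement receptor 3 on macrophages and neutrophils, was at 14.6, 15.8 and 3.87 CPM in UCP1 KI replicates 1 to 3 and at 4.99, 4.67 and 2.27 CPM in WT replicates 1 to 3. It was higher at a log2 fold change of 1.52 (standard error 0.56), with UCP1 KI replicate 3 among the WT pigs, and it missed the p limit at 1.31 when UCP1 KI replicate 1 was left out, at 1.22 when UCP1 KI replicate 2 was and at 1.24 when WT replicate 3 was.

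All 8 leukocyte markers had a positive log2 fold change, 2 of them (*ITGAM* and *CD3E*) past both limits. Their summed level was 28.8 to 90.8 CPM in UCP1 KI pigs and 24.9 to 52.5 CPM in WT pigs. This list holds *ITGAM* itself and the integrin chain *ITGB2*, so its values partly repeat the *ITGAM* result. The part of these cells in the *ITGAM* result was not tested.

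Inside the cell, the adhesion complex that links integrins to actin showed 1 of 28 genes past both limits. This was *LIMS2*, an adaptor that binds integrin-linked kinase, with means of 51.2 ± 10.1 CPM under UCP1 KI against 76.2 ± 9.09 CPM in the wild type (SD, n = 3 each), without overlap. Its log2 fold change of -0.57 no longer passed with library size only (-0.32) or with all genes with any count (-0.55), nor when any 1 of replicates 2 and 3 of either group was left out (-0.48 to -0.59). *BCAR1*, a docking protein of focal adhesions, had the next smallest p, with a log2 fold change of 0.44 (edgeR adjusted p = 0.645), and passed both limits with library size only (0.68). The median log2 fold change of this list was 0.05, with *ILK* at 0.09, *PTK2* at 0.09, *VCL* at -0.27 and *TLN1* at -0.32.

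Of 15 regulators of integrins, *DAB2*, an endocytic adaptor that takes up integrins from the surface, passed both limits. It was at 14.4, 14.0 and 14.8 CPM in UCP1 KI replicates 1 to 3 and at 31.6, 37.7 and 19.2 CPM in WT replicates 1 to 3, lower without overlap at a log2 fold change of -1.04 (standard error 0.29). *ITGB1BP1*, which binds the beta-1 tail and holds integrins inactive, averaged 32.9 ± 2.91 CPM under UCP1 KI against 24.6 ± 0.526 CPM in the wild type (SD, n = 3 each), without overlap and with a log2 fold change of 0.42 (edgeR adjusted p = 0.630). *ITGA3*, *COL1A1*, *COL1A2*, *LAMA4* and *DAB2* passed both limits in all 12 alternative fits, whereas *COL3A1* did not without WT replicate 2 (-1.31), nor *NPNT* without UCP1 KI replicate 2 (-1.54) or WT replicate 3 (-1.16). Beside these collagens, *LUM* (-0.57) was the 1 of the other 4 fibroblast markers that passed both limits, whereas *DCN* was at -0.39, *PDGFRA* at -0.08 and *DPT* at 0.17 (log2 fold changes), and the part of fibroblasts in the results for matrix genes was not tested.

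**Figure D4:**
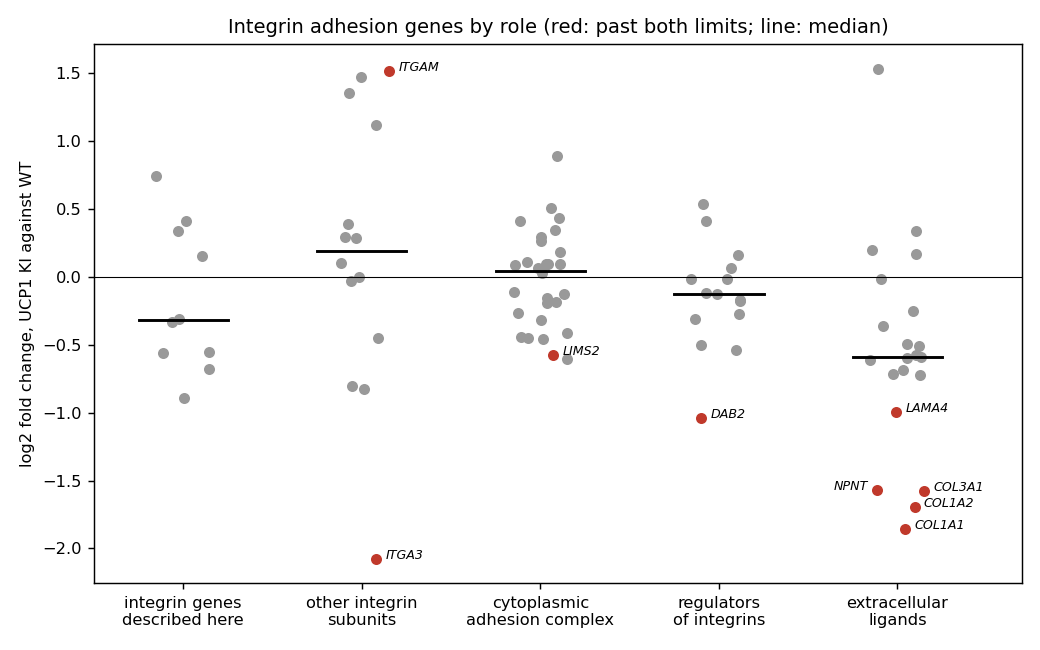
Log2 fold change of UCP1 KI against WT for the 10 integrin genes and for 4 lists of related genes, 1 point per gene tested, with red points past both limits and black lines for medians. Horizontal position within a list has no meaning. The 10 integrin genes hold no red point, and the ligands hold 5, all below 0.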

How the data were processed

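RNA was extracted with TRIzol, and mRNA libraries were sequenced in paired ends on HiSeq XTen instruments. Per the labels and the methods of the study, reads were checked with FastQC 0.11.2, trimmed with Trimmomatic 0.36 and mapped to Sscrofa11.1 with HISAT2 2.0, and expression was computed with StringTie 1.3.3b and tested with DESeq2 1.12.4. The authors deposited raw counts per Ensembl gene, without normalization, in 1 column per pig. The annotation release, the counting program and its use of strand are not given in the sources used here. Columns left unused numbered 0.

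For the present comparison, edgeR 4.0.16 under R 4.3.3 was used (filterByExpr, TMM factors, quasi-likelihood F test, two-sided, condition as the only term), and 13402 of 20062 genes with any count were tested. The 2 limits of a call, p below 0.05 and a log2 fold change beyond 0.5 in size, follow the study, which does not say whether its p was adjusted. Here the limit was put on p without adjustment. Standard errors are the size of the log2 fold change over the square root of F, and 95% intervals use the t distribution with the degrees of freedom of the test. DESeq2 1.42.0 was an alternative, as were other scaling, other filters, no fold change limit, each pig left out and the replicate number as a block. Procedures were tested on simulated data. No 2 libraries of a group agreed within sampling noise.

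Ensembl identifiers were joined to symbols through a name table, and gene spans were taken, 1-based, from the RefSeq annotation of Sscrofa11.1. No exon lengths were used, so levels were compared between pigs. A ratio of 2 genes was compared between pigs only, and its size does not say which gene is expressed more. The members and lists were chosen with earlier results of these data known. Named genes were all 10 members and, of the related lists, every gene past both limits, or the 2 genes with the smallest p where fewer than 2 passed. Genes given beside these as examples were chosen after their values were seen.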

Additional observations from a re-analysis of the deposited data

How the results depend on the processing

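The number of integrin genes past both limits, 0 of 10, was 1 with all genes with any count, 3 with DESeq2 on the same genes, 3 in a replicate block fit, and 0 to 2 with each pig left out. The block fit called *ITGA6* (-0.66), *ITGA7* (-0.57) and *ITGB1BP2* (-0.94), DESeq2 the same 3 genes. Of all 13402 genes tested, the block fit called 1114 (570 lower) and DESeq2 1309 (719 lower). With all genes with any count, 1360 of 20062 passed. The block also ended the call of *LIMS2* (-0.59). The labels number the pigs but name no pairs. Deviations of same-numbered pigs from their group means correlated at 0.00, 0.09 and 0.28. In each group only pig 3 correlated best with its own number. With 3 pigs a group, these correlations cannot settle whether pigs were paired. Single pigs left out gave calls of *ITGA6* (without UCP1 KI replicate 2 or WT replicate 3), *ITGA7* (WT replicate 3), *ITGB1BP2* (UCP1 KI replicate 1 or WT replicate 2) and *ITGA1* (UCP1 KI replicate 3). The sign changed for *ITGA5* without UCP1 KI replicate 3 (0.13) or WT replicate 2 (0.30), for *ITGA11* without WT replicate 3 (-0.11) and for *ITGAV* without WT replicate 1 (0.07), and the cause was not tested. With each pig left out their log2 fold changes ran from -0.93 to 0.30, from -0.11 to 0.64 and from -0.94 to 0.07. Those of the other 7 kept their sign: *ITGA1* 0.33 to 1.09, *ITGA9* 0.08 to 1.11, *ITGB5* 0.13 to 0.49, *ITGA6* -0.88 to -0.50, *ITGA7* -0.70 to -0.43, *ITGB1* -0.39 to -0.21 and *ITGB1BP2* -1.36 to -0.65. With each pig left out, 678 (without UCP1 KI replicate 2) to 1541 (without WT replicate 3) of all genes, against 1097 with all pigs, and 6 to 14 of the related genes, against 9, passed. Library size only moved the median of all genes by 0.25 (log2) and the share of higher genes among those called from 46.9% to 82.7%, and the median of the 10 genes from -0.32 to -0.06. Of the other settings, 53 of 60 fits of single members kept direction and side of the limits, and 7 passed the limits.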
